A study of Homo sapiens with 18 samples.

Results

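The genes described here mark the invasive, undifferentiated state that melanoma cells can take up: the receptors AXL, PDGFRB and NGFR, the secreted ligand WNT5A, and the transcription factors JUN, SNAI2, ZEB1, ZEB2 and TCF4. The set is a list of gene names. Of 10 genes on the list, 9 had a row in the table of 20705 genes, and SOX9 was not analysed here. The question was how the transcripts of these genes stood in 2 melanoma cell lines, and how they responded to inhibition of the cell-cycle kinases CDK4 and CDK6 (CDK4/6i, palbociclib) or of the arginine methyltransferase PRMT5 (PRMT5i, GSK3326595).

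RNA was sequenced from 18 libraries in 9 groups of 2. CHL1 cells, described in the methods as wild type for BRAF and NRAS and mutant for p53, were grown in DMEM and received DMSO for 72 hours (control), 1 µM palbociclib for 72 hours or 6 days, or 500 nM GSK3326595 for 72 hours. A375 cells, BRAF-mutant with wild-type p53, were grown in RPMI-1640 and received the same treatments, with a further DMSO control at 6 days. All libraries are labelled WT for genotype, and each line stands for itself alone. CHL1 had no control of 6 days, so its 6-day libraries were set against the 72-hour control. Nothing in the labels says whether the 2 replicates of a group were separate cultures, and p-values therefore measure the spread between these libraries only.

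In melanoma, cells of the melanocytic state depend on MITF and SOX10 and make pigment enzymes, whereas cells of the invasive state lower that programme and make AXL, WNT5A, AP-1 factors and, in some cells, the neural crest receptor NGFR. The switch has a transcription factor code of its own: SNAI2 and ZEB2 are part of the normal melanocyte programme, while ZEB1 is the factor usually gained in invasive cells. The state matters because AXL-high and NGFR-high cells are known to tolerate drugs against the MAPK pathway.

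Both lines held lineage transcripts. Of 8 markers of the melanocyte lineage fixed for the check, 6 had a row, and their summed level was 198 to 528 CPM, that is, read counts normalised to the TMM-adjusted library size, over the CHL1 libraries and 130 to 301 CPM over the A375 libraries. MITF, the lineage master regulator, was at 69.0 CPM in the CHL1 control and 111 CPM in the A375 control of 72 hours. The pigment genes were low by comparison, with PMEL at 0.997 CPM and 1.14 CPM and TYR at 1 to 2 reads in each CHL1 control library and 0 to 1 in the A375 control. The enzyme gene DCT was at 83.3 CPM in the CHL1 control and had 0 reads in both A375 control libraries of 72 hours. Marker sums of other cell types stayed at or below 37.3 CPM in every library, the highest being the fibroblast list in CHL1 through LUM. These sums moved with treatment. The fibroblast sum was 12.8 to 16.03 CPM in the CHL1 control, 22.9 to 23.0 CPM and 37.3 CPM after 72 hours and 6 days of CDK4/6i, and 26.3 to 33.5 CPM under PRMT5i. In A375 it was 12.7 to 12.9 CPM in the 72-hour control against 13.3 to 14.8 CPM under CDK4/6i and 27.0 to 29.4 CPM under PRMT5i, and 9.96 to 10.7 CPM in the 6-day control against 16.8 to 20.9 CPM under CDK4/6i. LUM itself rose in CHL1 under PRMT5i by 1.22 on the log2 scale, or 0.03 with GC correction (edgeR). COL1A1 of the same list fell there, at -2.25 without correction (edgeR). With GC correction 0 of the 2 fibroblast genes that could be corrected rose there and 1 fell. The 2 genes also parted in A375 at 72 hours of CDK4/6i, with LUM at 2.22 and COL1A1 at -0.91 (edgeR). Under PRMT5i in A375 COL1A1 rose. The fibroblast sum therefore does not stand for each gene of its list. Of the endothelial list, KDR alone had a row. It rose under CDK4/6i at 72 hours and 6 days, in A375 by 3.00 and 2.15 on the log2 scale and in CHL1 by 1.04 and 1.06 (edgeR). The A375 control of 72 hours held only 0.0489 and 0.386 CPM of KDR. Without drug, KDR was 4.61 higher on the log2 scale in the 6-day than in the 72-hour A375 control. The leukocyte gene PTPRC rose in CHL1 by 1.15 at 6 days and by 0.996 under PRMT5i (edgeR). With GC correction 0 of the leukocyte list rose under PRMT5i. The methods describe cultures of 2 cell lines, with identity established by short tandem repeat analysis, and name no other cell type. What the marker transcripts of other cell types stand for in these cultures was not tested. These are bulk libraries, in which fewer cells of a type and less RNA per cell cannot be told apart.

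Library totals ran from 16213475 to 37424081 counts. The CHL1 PRMT5i group and the A375 control of 6 days stood apart in how their values followed the GC content of genes. Relative to their line, GC-rich genes were lower than GC-poor genes by 2.41 and 1.95 on the log2 scale in the CHL1 PRMT5i libraries and by 2.24 and 1.13 in the 6-day DMSO libraries of A375, against differences of -0.35 to 0.58 in the other 14. The genes described here sit at both ends of that scale: transcripts of TCF4, ZEB1, ZEB2, SNAI2 and WNT5A are 38.2% to 42.3% GC, and those of AXL, JUN, PDGFRB and NGFR are 53.8% to 62.9% GC. For the genes of the set, most results that rest on those 2 groups are given with and without a correction for GC content. Line differences against the A375 control of 6 days have no corrected value. The part of base composition in these results was not tested further. The A375 72-hour libraries also carry names of another set than all CHL1 and A375 6-day libraries, so that set and time within A375, and set and line at 72 hours, cannot be told apart.

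The lines used different members of this set before any drug was given. Per kilobase of longest transcript, the CHL1 control held ZEB2 at 28.6 CPM per kb, followed by AXL at 8.87, TCF4 at 6.25, ZEB1 at 5.37, SNAI2 at 3.38, JUN at 1.81, PDGFRB at 1.28 and NGFR at 0.0663 CPM per kb, with no WNT5A read. TCF4 and ZEB1 overlapped in that order, since single libraries held 5.78 and 6.71 CPM per kb of TCF4 and 4.37 and 6.38 CPM per kb of ZEB1. The A375 control of 72 hours was led by AXL at 141 CPM per kb, followed by JUN at 15.6, ZEB1 at 13.5, WNT5A at 10.8, TCF4 at 6.22, PDGFRB at 4.84, ZEB2 at 3.70, NGFR at 1.13 and SNAI2 at 0.121 CPM per kb. JUN and ZEB1 were close neighbours, with libraries of 13.9 and 17.4 CPM per kb for JUN and 13.3 and 13.8 CPM per kb for ZEB1, which did not overlap. Measured over the union of exons, which is far longer for ZEB2 and TCF4, ZEB2 fell to 10.5 CPM per kb in CHL1 but still led that line.

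**Figure D1:**
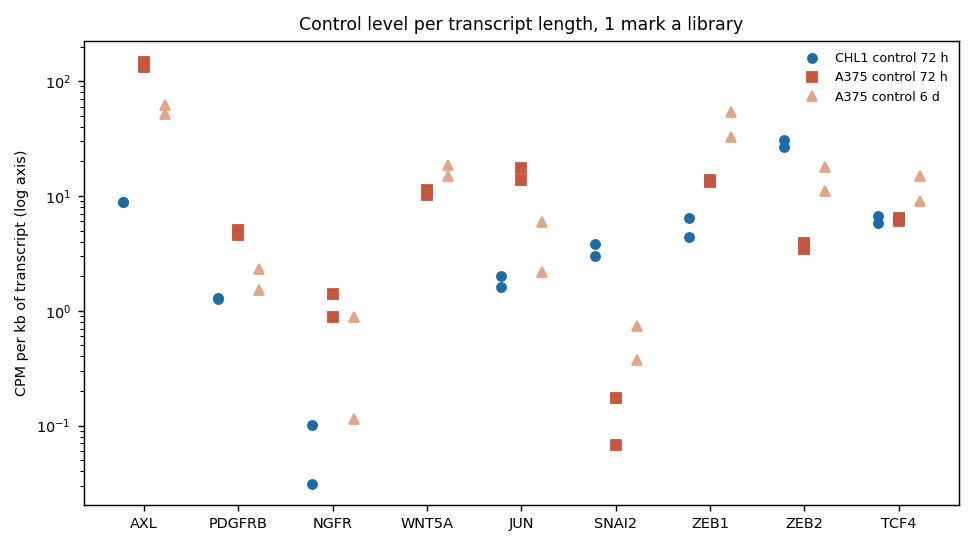
Level of each gene per kilobase of its longest transcript (CPM per kb, log axis) in the 3 control groups, with 1 mark for each of 2 libraries a group. AXL, WNT5A, JUN and PDGFRB lie higher in A375 and SNAI2 and ZEB2 higher in CHL1; WNT5A has no CHL1 mark because both libraries held 0 reads.

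Between the 72-hour controls, 8 of 9 genes passed the test, against 58.9% of all genes. Of these, 2 were higher in CHL1 (29.3% of all genes) and 6 lower (29.6%). SNAI2, the Slug repressor of the neural crest, was 27.7-fold higher in CHL1, and ZEB2 was 7.72-fold higher. AXL was 15.9-fold lower in CHL1, NGFR 16.7-fold lower, JUN 8.62-fold lower, PDGFRB 3.77-fold lower and ZEB1 2.52-fold lower. WNT5A was at least 612-fold lower, counted against a floor of 3 reads in each CHL1 library. The largest adjusted p among these 8 genes was 0.000463, for ZEB1 (edgeR quasi-likelihood test with Benjamini-Hochberg adjustment over all genes). TCF4 differed by 0.01 ± 0.20 (SE) on the log2 scale, with a 95% interval of -0.41 to 0.42. Against the A375 control of 6 days, which shares its library set with CHL1, TCF4 was lower in CHL1 by a log2 difference of -0.94 and PDGFRB no longer passed at -0.58 (edgeR, adjusted p = 0.0706). With that control the log2 differences were 2.59 for SNAI2, 0.98 for ZEB2, -2.67 for AXL, -2.87 for NGFR, -1.15 for JUN and -3.01 for ZEB1. The 6-day control is 1 of the 2 groups set apart by GC content, and no GC-corrected fit was made against it. The part of base composition in these differences was not tested. Single libraries also moved the 2 scarce genes, NGFR to -5.10 or -3.44 without CHL1 control replicate 1 or 2, and SNAI2 to 4.25 or 5.62 without A375 control replicate 1 or 2.

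The count of genes of the set that passed ranged from 0 to 6 of 9 over the 6 comparisons of treated with control libraries. In CHL1, 2 of 9 passed after 72 hours against 4.98% of all genes, SNAI2 higher (2.27% of all genes were) and TCF4 lower (2.72%). After 6 days 6 of 9 passed against 16.6%, with NGFR, WNT5A, SNAI2 and JUN higher (8.83%) and AXL and TCF4 lower (7.80%). In A375, SNAI2 (6.22% of all genes were higher) and AXL (7.11% lower) passed after 72 hours, 2 of 9 against 13.3%. After 6 days 4 of 9 passed against 43.1%, all lower (21.3%): ZEB1, ZEB2, TCF4 and PDGFRB. With GC correction ZEB1, TCF4 and PDGFRB still passed as lower and ZEB2 did not, while AXL passed as lower and SNAI2 as higher. PRMT5i changed 6 of 9 in CHL1, where 54.0% of all genes passed. SNAI2, ZEB1 and ZEB2 were higher (26.4%) and AXL, JUN and PDGFRB lower (27.6%), and with GC correction 3 passed of the 7 abundant enough to be corrected, where 39.1% of the genes tested did. These were SNAI2, still higher, and ZEB2 and TCF4, both lower. In A375, PRMT5i changed 0 of 9, and 2.61% of all genes. In that last comparison 3 of the 9 had an unadjusted p below 0.05 in edgeR, and DESeq2 also called 0. With GC correction 2 were called, and 3 in a fit of the 2 compared groups alone, so the count of 0 depends on the setting. The shares of all genes in those 2 fits are not given here. The median log2 fold change of the 9 genes was 0.40 and -0.12 in CHL1 after 72 hours and 6 days of CDK4/6i and 0.32 under PRMT5i. These CHL1 medians count WNT5A, whose fitted 3.68 at 72 hours and 2.26 under PRMT5i rest on 0 to 2 reads a library. The medians of 0.40 and 0.32 were the values of PDGFRB and TCF4. The next lower values there were those of AXL, -0.28 and -0.58. All these medians are without GC correction. In A375 the median was -0.26, -0.44 and -0.07, and over all genes the medians of these comparisons lay between 0 and 0.10.

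**Figure D2:**
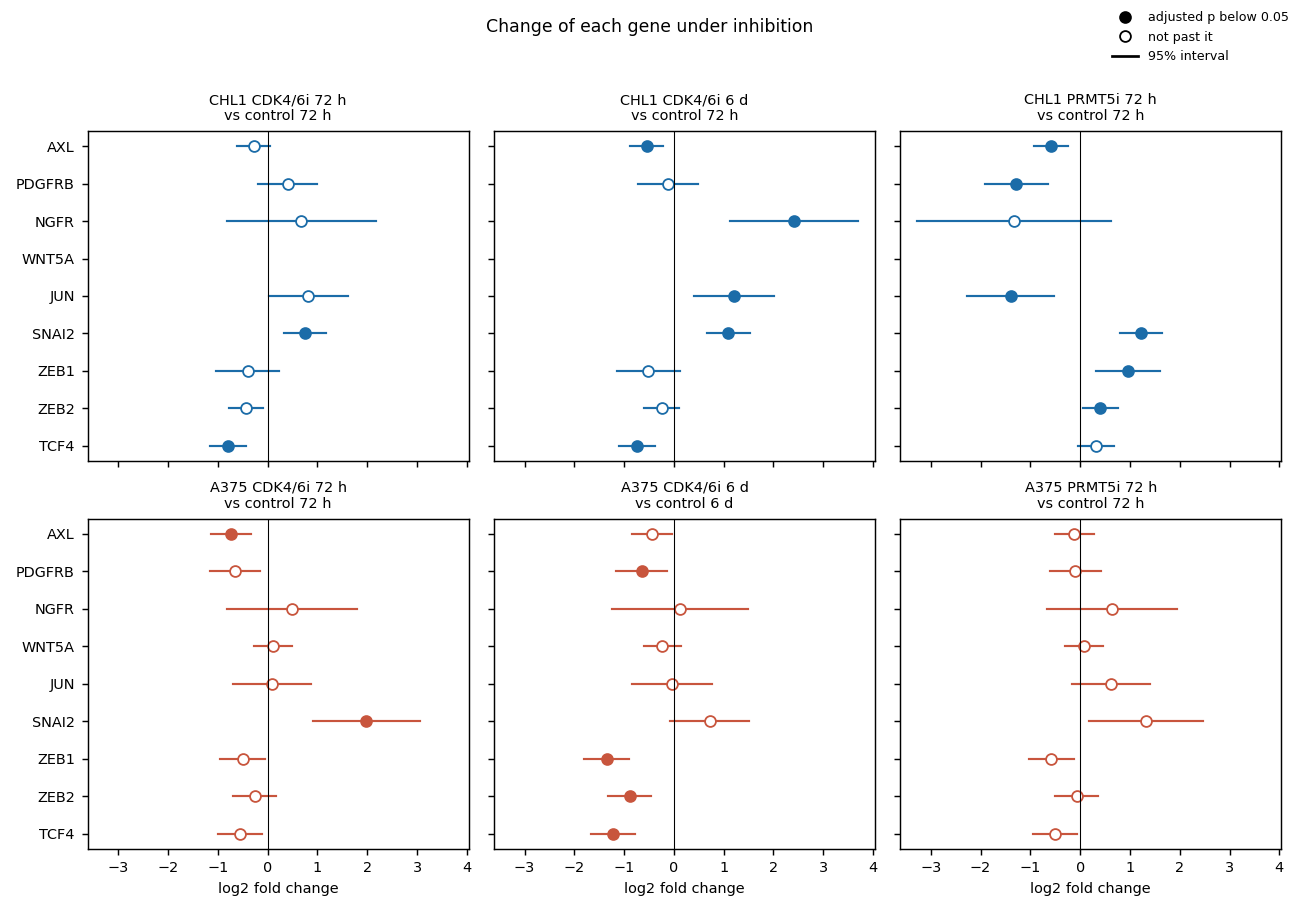
Log2 fold change (points) with its 95% interval (lines) of each gene in the 6 comparisons of treated with control libraries; filled points passed an adjusted p of 0.05. SNAI2 lies right of 0 in all 6 panels and AXL left of 0 in all 6; WNT5A is not drawn for CHL1, whose control held 0 reads.

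AXL, the TAM-family receptor tyrosine kinase that marks the invasive state, was at 41.8 and 41.9 CPM in the CHL1 control libraries, 33.3 and 35.6 CPM after 72 hours of CDK4/6i, 29.3 and 27.3 CPM after 6 days, and 26.7 and 28.5 CPM under PRMT5i. All treated CHL1 libraries lay below both controls. After 6 days of CDK4/6i AXL fell by 0.55 ± 0.16 (SE) on the log2 scale (edgeR, adjusted p = 0.0320), and after 72 hours the change was -0.28 ± 0.15, short of the threshold (adjusted p = 0.342, edgeR). Leaving out any 1 of the 4 libraries ended the 6-day call, with values between -0.62 and -0.49. Under PRMT5i AXL fell by 0.58 ± 0.15 (edgeR, adjusted p = 0.00721), but with GC correction the value was 0.09.

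In A375, AXL was far more abundant, at 632 and 695 CPM in the 72-hour control, 421 and 405 CPM after 72 hours of CDK4/6i, and 584 and 654 CPM under PRMT5i. The 6-day control held 242 and 292 CPM and the 6-day CDK4/6i libraries 182 and 213 CPM, again with no overlap between treated and control. The 72-hour fall was 0.74 ± 0.19 on the log2 scale (edgeR, adjusted p = 0.0159), and it no longer passed without any 1 of the 4 libraries (values from -0.80 to -0.65). At 6 days the change was -0.44 ± 0.19 (edgeR, adjusted p = 0.0695), which became -0.87 with GC correction (edgeR, adjusted p = 0.000468). Under PRMT5i the change was -0.11, with a 95% interval of -0.51 to 0.28. The 72-hour CDK4/6i response of AXL in CHL1 minus that in A375 was 0.40 ± 0.22, with a 95% interval of -0.06 to 0.87.

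The other TAM genes were read from a list of 4 receptors and ligands. GAS6, the secreted ligand that activates AXL, averaged 23.2 CPM in the A375 control, 49.4 CPM with CDK4/6i for 72 hours and 67.8 CPM with PRMT5i, and it went from 19.8 CPM in the 6-day control to 61.0 CPM after 6 days of CDK4/6i. It rose in all 3 A375 comparisons, by 1.03 ± 0.24, 1.53 ± 0.24 and 1.61 ± 0.24 on the log2 scale, with adjusted p of 0.0103, 0.00579 and 0.000134 (edgeR). In CHL1, GAS6 was scarce, at 0.839 CPM in the control and 2.16 CPM after 6 days of CDK4/6i, a rise of 1.35 ± 0.40 (edgeR, adjusted p = 0.0407). PROS1, a further TAM ligand, rose by 0.63 ± 0.19 in the same comparison and by 0.79 ± 0.23 in A375 at 72 hours. GAS6 thus went up and AXL down in CHL1 at 6 days and in A375 at 72 hours, each past the test. Under PRMT5i in CHL1 GAS6 fell by 1.57 and the receptor gene TYRO3 by 1.26, which became -0.45 and -0.74 with GC correction, TYRO3 alone still passing. The receptor gene MERTK rose in A375 at 6 days by 1.30 ± 0.35. With GC correction the 6-day A375 values were 1.10 for GAS6 and 1.23 for MERTK, and both still passed.

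**Figure D3:**
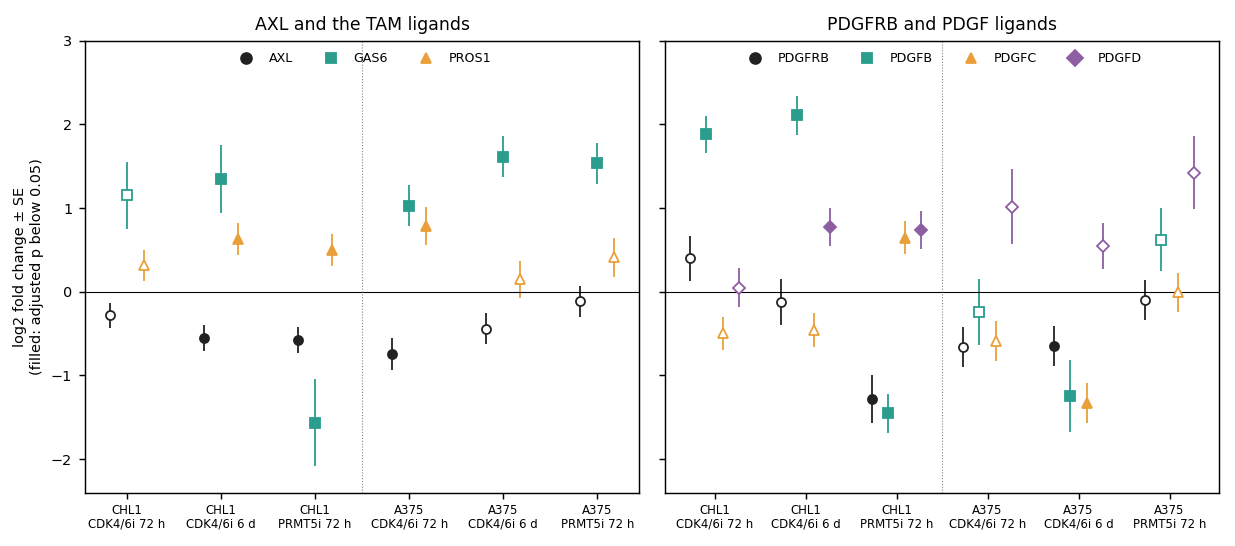
Log2 fold change with its SE for AXL and 2 TAM ligands (left) and for PDGFRB and 3 PDGF ligands (right) in the 6 comparisons of treated with control libraries; filled marks passed an adjusted p of 0.05. GAS6 lies above 0 and AXL below 0 in 5 of the 6 comparisons, and PDGFB lies at 1.88 and 2.11 in CHL1 under CDK4/6i.

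PDGFRB, the platelet-derived growth factor receptor found raised in some BRAF-inhibitor resistant melanoma cells, was at 7.36 and 7.27 CPM in the CHL1 control, 9.63 and 9.71 CPM after 72 hours of CDK4/6i, 7.09 and 6.20 CPM after 6 days, and 1.94 and 4.01 CPM under PRMT5i. The PRMT5i libraries lay below, and the 72-hour CDK4/6i libraries above, every other CHL1 library. The fall there was 1.28 ± 0.29 on the log2 scale (edgeR, adjusted p = 0.00262), and -0.37 with GC correction (edgeR, adjusted p = 0.204). In A375 the 72-hour control held 28.9 and 26.3 CPM, CDK4/6i 19.9 and 16.5 CPM and PRMT5i 27.3 and 24.9 CPM. At 6 days the control held 8.59 and 13.2 CPM and CDK4/6i 5.87 and 8.12 CPM, so treated libraries were lower than controls at both times. The 72-hour change was -0.66 ± 0.24 (edgeR, adjusted p = 0.0838). The 6-day fall was 0.65 ± 0.24 (edgeR, adjusted p = 0.0422), lost at -0.27 without control replicate 2 and at -0.44 without CDK4/6i replicate 1. With GC correction PDGFRB passed at both times, at -0.75 and -1.12.

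Of 5 other PDGF ligand and receptor genes, PDGFB encodes a ligand of PDGFRB. In CHL1 it averaged 13.8 CPM in the control, 50.7 CPM after 72 hours and 58.8 CPM after 6 days of CDK4/6i, rises of 1.88 ± 0.23 and 2.11 ± 0.23 (edgeR, adjusted p = 0.00189 and 0.000389). Under PRMT5i it fell with its receptor, by 1.45 ± 0.24, or -0.40 with GC correction (edgeR, adjusted p = 0.0589). The ligand genes PDGFD and PDGFC went the other way there, by 0.74 ± 0.23 and 0.64 ± 0.20 (edgeR, adjusted p = 0.0159 and 0.0154). With GC correction 0 of the 3 genes of the list that could be corrected rose there and 0 fell. In A375 at 6 days of CDK4/6i, where PDGFRB fell, PDGFC fell by 1.33 ± 0.24 and PDGFB by 1.25 ± 0.43, and both still passed with GC correction.

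NGFR, the low-affinity neurotrophin receptor CD271 and a mark of the neural crest stem-like state, was scarce in both lines. The CHL1 control libraries held 10 and 3 reads, CDK4/6i 12 and 8 at 72 hours and 19 and 37 at 6 days, and PRMT5i 2 and 3. Both 6-day libraries, at 0.724 and 1.76 CPM, lay above all other CHL1 libraries. The rise was 5.32-fold (2.41 ± 0.59 on the log2 scale, edgeR, adjusted p = 0.0168), and it lost the call without control replicate 2 (1.82) or 6-day replicate 2 (1.68). In A375 NGFR ran from 2.99 to 7.41 CPM over the 6 libraries of 72 hours. Replicates of 6 days disagreed, with 0.391 and 3.01 CPM in the control and 0.792 and 2.94 CPM under CDK4/6i. No A375 treatment passed, and the 95% intervals were wide: -0.82 to 1.79 for CDK4/6i at 72 hours, -1.24 to 1.48 at 6 days and -0.67 to 1.95 for PRMT5i.

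Among 8 neurotrophin and receptor genes listed, 5 had a row. NTRK2, the TrkB receptor, rose in A375 by 2.08 ± 0.36 at 72 hours of CDK4/6i (edgeR, adjusted p = 0.00138) and by 1.47 ± 0.36 under PRMT5i (edgeR, adjusted p = 0.0426).

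WNT5A, the non-canonical WNT ligand tied to melanoma cell motility, divided the lines. CHL1 libraries held 0 and 0 reads in the control, 1 and 2 with CDK4/6i for 72 hours, 1 and 0 with PRMT5i, and 7 and 11 with CDK4/6i for 6 days. The 6-day level, a mean of 0.396 CPM, was at least 3.72-fold above the control, with the floor set at 3 reads in each control library (edgeR, adjusted p = 0.0114). Leaving out 6-day replicate 2 or either control library brought the adjusted p to between 0.0517 and 0.0825 (edgeR), and DESeq2 filtered the gene out. A375 libraries held 62.0 and 68.3 CPM in the 72-hour control, 67 and 79.6 CPM under CDK4/6i, 64.5 and 74.0 CPM under PRMT5i, 112 and 90.3 CPM in the 6-day control and 80.4 and 91.5 CPM after 6 days of CDK4/6i. Treated and control ranges overlapped in all 3 A375 comparisons, with log2 changes of 0.11, 0.08 and -0.23 and 95% intervals inside -0.61 to 0.49.

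Among 12 genes of non-canonical WNT signalling, 0 passed in CHL1 at 72 hours of CDK4/6i, where 4.98% of all genes did. At 6 days 1 rose and 1 fell (16.6% of all genes passed). In A375 0 passed at 72 hours (13.3%), and 0 rose and 3 fell at 6 days (43.1%). With GC correction the 6-day counts in A375 were 2 and 5 of the 9 that could be corrected. The share of all genes in that corrected fit is not given here. ROR2, a WNT5A receptor, fell in CHL1 after 6 days of CDK4/6i by 2.26 ± 0.65 (edgeR, adjusted p = 0.0342), from 7.84 and 19.4 CPM to 0.763 and 4.69 CPM, while DAAM1, a formin that acts downstream of Dishevelled, rose by 0.78 ± 0.17. In A375 at 6 days the receptors ROR1 and FZD7 fell by 1.19 ± 0.23 and 1.21 ± 0.27, and both passed with GC correction as well. Under PRMT5i in CHL1 1 of the 12 rose and 4 fell, where 26.4% and 27.6% of all genes did, and with GC correction the counts were 1 and 4 of the 11 that could be corrected. Among those that fell without correction were WNT11 by 1.88 and FZD2 by 1.45, or -0.89 and -0.64 with GC correction.

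JUN, the AP-1 subunit whose gain goes with the undifferentiated state, was at 5.25 and 6.56 CPM in the CHL1 control, 8.21 and 12.6 CPM after 72 hours of CDK4/6i, 11.4 and 15.8 CPM after 6 days, and 1.14 and 3.30 CPM under PRMT5i. CDK4/6i libraries lay above both controls and PRMT5i libraries below them. The rise was 1.21 ± 0.37 at 6 days (edgeR, adjusted p = 0.0420), a call that ended without any 1 of the 4 libraries (0.97 to 1.42) and when genes of low count were filtered out (edgeR, adjusted p = 0.0527). At 72 hours it was 0.82 ± 0.37 (edgeR, adjusted p = 0.236). Under PRMT5i JUN fell by 1.40 ± 0.40 (edgeR, adjusted p = 0.0104), a call lost without control replicate 2 (-1.23) or PRMT5i replicate 1 (-0.82) and with GC correction (-0.58). In A375 the 72-hour control held 45.2 and 56.6 CPM, CDK4/6i 56.7 and 56.2 CPM and PRMT5i 69.6 and 89.2 CPM, and the 6-day libraries 7.03 and 19.3 CPM in the control and 8.06 and 17.7 CPM under CDK4/6i. The 6-day replicates of 1 group differed more than the groups did, and JUN passed in none of the 3 A375 comparisons. The 6-day change was -0.04, but 0.90 without control replicate 2 (edgeR, adjusted p = 0.0461).

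Of 13 other AP-1 subunit genes, 11 had a row. In CHL1, ATF3, a stress-induced dimer partner of JUN, rose by 1.43 ± 0.25 and 1.13 ± 0.25 at 72 hours and 6 days of CDK4/6i, and MAF by 1.21 ± 0.20 and 1.78 ± 0.21 (largest adjusted p of these 4, 0.0103, edgeR). BATF3 fell in the same comparisons, by 1.11 ± 0.25 and 0.89 ± 0.25. In all 2 rose and 1 fell at 72 hours, where 4.98% of all genes passed, and 3 rose and 2 fell at 6 days, where 16.6% did. Under PRMT5i, 7 of the 11 fell and 2 rose, where 27.6% and 26.4% of all genes did, and with GC correction 2 fell and 2 rose. JUND, a close relative of JUN, fell there by 1.78 ± 0.23 and BATF3 by 1.29 ± 0.26, and both passed with GC correction, at -0.65 and -1.43. In A375 at 6 days JUND fell by 1.62 ± 0.22 (-1.56 with GC correction) and ATF3 rose by 1.32 ± 0.42, the latter short of the threshold with GC correction (edgeR, adjusted p = 0.0541).

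The promoters of these genes were read for letters that AP-1 and E2-box factors bind. RefSeq promoter windows, 250 bases ending at the base before a start, were matched to GRCh37 for 7 of the 9 genes, 24 windows in all. The JUN promoter, shown because JUN both rose and fell here and binds its own promoter, spans chr1:59249720-59249969 on the minus strand, with TGACATCA in capitals from 67 bases before the start:
JUN promoter: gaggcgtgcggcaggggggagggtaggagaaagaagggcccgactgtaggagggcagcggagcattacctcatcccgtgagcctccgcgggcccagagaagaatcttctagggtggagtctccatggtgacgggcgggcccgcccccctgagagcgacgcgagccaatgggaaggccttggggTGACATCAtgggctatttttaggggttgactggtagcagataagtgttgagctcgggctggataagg
That sequence fits TGANNTCA, a form of the AP-1 and CRE site that 10.1% of 35116 human promoter windows of this length hold on either strand. The related TGANTCA was in 1 of the 24 windows, at TCF4, against 6.57% of all windows, and the 2 matches lie at different genes. The match is a description of letters and not of binding.

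SNAI2, the zinc-finger repressor known as Slug, rose in more comparisons than any other of these genes. CHL1 libraries held 8.43 and 10.7 CPM in the control, 15.2 and 17.1 CPM after 72 hours of CDK4/6i, 20.8 and 19.7 CPM after 6 days, and 20.0 and 24.1 CPM under PRMT5i. Every treated library lay above both controls. The rises were 0.75 ± 0.19, 1.09 ± 0.20 and 1.22 ± 0.19 on the log2 scale, with adjusted p of 0.0483, 0.00398 and 0.000340 (edgeR). The 72-hour call was lost without any 1 of the 4 libraries (0.59 to 0.94) and with the replicate number as a block (edgeR, adjusted p = 0.0564). The 6-day call was lost only without control replicate 1 (0.93; edgeR, adjusted p = 0.0604), and the PRMT5i call held in all 4 such fits and with GC correction, at 0.59 (edgeR, adjusted p = 0.0180).

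In A375 SNAI2 was close to the detection limit, with 4 and 10 reads in the 72-hour control, 24 and 31 under CDK4/6i and 14 and 16 under PRMT5i. As CPM these were 0.193 and 0.489, 1.27 and 1.55, and 0.768 and 0.971, without overlap between treated and control. The rise under CDK4/6i was 1.98 ± 0.51 (edgeR, adjusted p = 0.0167), which ended without control replicate 1 (1.47) or either treated library (2.12 and 1.83). Under PRMT5i it was 1.32 ± 0.54 (edgeR, adjusted p = 0.229). At 6 days the control held 2.10 and 1.06 CPM and CDK4/6i 2.76 and 2.46 CPM, a change of 0.72 ± 0.37 (edgeR, adjusted p = 0.131) that became 1.13 with GC correction (edgeR, adjusted p = 0.0144).

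ZEB1, the repressor of epithelial genes gained in invasive melanoma, went in opposite directions in 2 comparisons. In CHL1 it was at 27.3 and 39.9 CPM in the control, 20.3 and 30.7 CPM at 72 hours of CDK4/6i, 28.6 and 17.8 CPM at 6 days, and 52.0 and 77.1 CPM under PRMT5i. CDK4/6i and control libraries overlapped, and PRMT5i libraries lay above all others. The rise under PRMT5i, 0.96 ± 0.29 (edgeR, adjusted p = 0.0143), was lost without control replicate 1 (0.71) or PRMT5i replicate 2 (0.65), and was 0.03 with GC correction. In A375 it was at 82.9 and 86.4 CPM in the 72-hour control, 58.3 and 66.5 CPM under CDK4/6i, 53.7 and 60.6 CPM under PRMT5i, 338 and 202 CPM in the 6-day control and 95.7 and 115 CPM under 6-day CDK4/6i. The 6-day control stood above every other A375 library. Against it ZEB1 fell by 1.35 ± 0.21 (edgeR, adjusted p = 0.000196), or by 0.64 with GC correction (edgeR, adjusted p = 0.00290), whereas against the 72-hour control the same treated libraries differed by 0.27. At 72 hours the changes were -0.50 ± 0.21 under CDK4/6i and -0.58 ± 0.21 under PRMT5i, with adjusted p of 0.135 and 0.175 (edgeR).

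ZEB2, the paralogue kept in melanocytes, was the most abundant of these genes in CHL1, at 294 and 254 CPM in the control, 219 and 188 CPM at 72 hours of CDK4/6i, 229 and 229 CPM at 6 days, and 386 and 331 CPM under PRMT5i. PRMT5i libraries were above and CDK4/6i libraries below both controls. The PRMT5i rise of 0.41 ± 0.16 (edgeR, adjusted p = 0.0458), lost without either control library (0.51 and 0.31) or PRMT5i replicate 1 (0.30), turned to a fall of -0.46 with GC correction (edgeR, adjusted p = 0.0339), and the CDK4/6i changes of -0.43 and -0.25 did not pass. In A375, ZEB2 was at 33.4 and 37.5 CPM in the 72-hour control, 29.3 and 32.5 CPM under CDK4/6i, 32.2 and 35.9 CPM under PRMT5i, 172 and 106 CPM in the 6-day control and 72.1 and 77.8 CPM after 6 days of CDK4/6i. As with ZEB1, the 6-day control stood highest. Against it ZEB2 fell by 0.89 ± 0.20 (edgeR, adjusted p = 0.00251), which was -0.25 with GC correction (edgeR, adjusted p = 0.0856) and a rise of 1.03 when the 72-hour control took its place (edgeR, adjusted p = 0.00110).

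**Figure D4:**
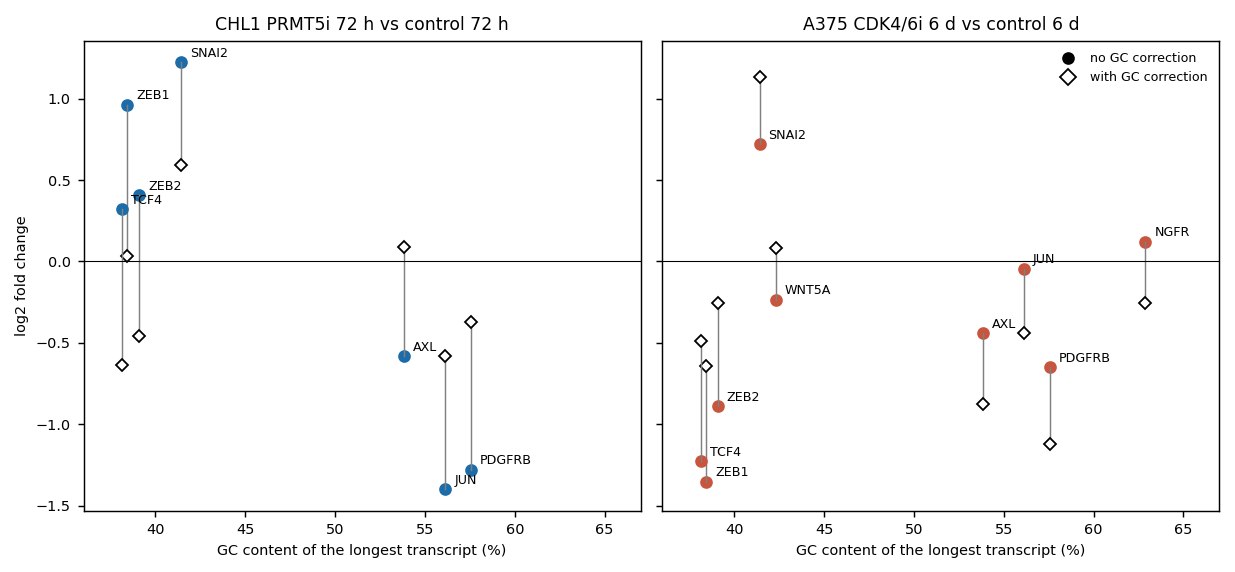
Log2 fold change against the GC content of the longest transcript for CHL1 under PRMT5i (left) and A375 after 6 days of CDK4/6i (right), without (filled circles) and with GC correction (open diamonds). In CHL1 the GC-poor genes move down and the GC-rich genes up on correction, with SNAI2 still at 0.59; NGFR and WNT5A are not drawn for CHL1, where they were below 1 CPM.

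Of 12 EMT factor and cadherin genes listed beside these, 8 had a row. CDH11, a mesenchymal cadherin, fell in A375 by 1.02 ± 0.22 at 72 hours and 2.70 ± 0.23 at 6 days of CDK4/6i (edgeR, adjusted p = 0.00553 and 2.77e-06), and at 6 days CDH2, N-cadherin, fell by 0.76 ± 0.18. With GC correction both 6-day falls still passed, at -2.44 and -0.50. VIM, the mesenchymal filament vimentin, fell in CHL1 at 6 days by 0.72 ± 0.21. No EMT gene of the list passed upward under CDK4/6i in either line, where 4.98% to 43.1% of all genes passed in either direction, depending on the comparison. Under PRMT5i in CHL1, SNAI1, the Snail paralogue of SNAI2, fell by 1.26 ± 0.25 (-0.29 with GC correction) and TWIST1 rose by 0.73 ± 0.27 (1.63 with GC correction).

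SNAI2, ZEB1, ZEB2 and TCF4 proteins all bind the E2-box letters CACCTG or its reverse complement CAGGTG. Windows with these letters, none of which overlaps an AP-1 match here, made up 17.5% of all 35116 promoters and 4 of the 24 examined, at 3 of the 7 genes. They are shown with the box in capitals because the genes concerned, AXL, WNT5A and ZEB1, are themselves among those measured:
AXL promoter, chr19:41724878-41725127, plus strand, box 106 bases before the start: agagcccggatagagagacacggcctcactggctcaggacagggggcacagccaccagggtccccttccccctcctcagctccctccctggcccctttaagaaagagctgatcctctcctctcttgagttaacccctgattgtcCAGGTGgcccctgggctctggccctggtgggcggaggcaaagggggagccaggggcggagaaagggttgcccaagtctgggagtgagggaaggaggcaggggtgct
WNT5A, box 204 bases before its first start: atgaactgggggCACCTGggcgcacagatc
ZEB1, box 57 bases before its first start: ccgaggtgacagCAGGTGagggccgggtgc
ZEB1, box 242 bases before the third of its starts listed: ccccaccaCACCTGaggaaaacttttccct
ZEB1, box 85 bases before the third of its starts listed: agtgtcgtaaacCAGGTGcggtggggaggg
The AXL and ZEB1 genes lie on the plus strand of chromosomes 19 and 10 and WNT5A on the minus strand of chromosome 3 (GRCh37).

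TCF4, here the E protein E2-2 and not the WNT effector of the same nickname, was at 48.2 and 56.0 CPM in the CHL1 control, 29.3 and 31.0 CPM after 72 hours of CDK4/6i, 29.3 and 32.8 CPM after 6 days, and 59.3 and 69.1 CPM under PRMT5i. All 4 CDK4/6i libraries lay below the controls and both PRMT5i libraries above. TCF4 fell by 0.79 ± 0.16 and 0.74 ± 0.16 under CDK4/6i (edgeR, adjusted p = 0.0207 and 0.0114). The 72-hour call ended without any 1 of the 4 libraries (-0.90 to -0.68) and the 6-day call without control replicate 2 (-0.62) or 6-day replicate 1 (-0.67). Under PRMT5i the change was 0.32 ± 0.16 (edgeR, adjusted p = 0.118), and -0.63 with GC correction (edgeR, adjusted p = 0.00847).

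In A375 TCF4 was at 53.6 and 50.1 CPM in the 72-hour control, 37 and 36.6 CPM under CDK4/6i and 39.4 and 34.4 CPM under PRMT5i, lower in every treated library. The changes were -0.55 ± 0.21 and -0.51 ± 0.21 (edgeR, adjusted p = 0.0926 and 0.236). At 6 days the control held 125 and 74.8 CPM and CDK4/6i 40.7 and 44.6 CPM, a fall of 1.23 ± 0.21 (edgeR, adjusted p = 0.000335), or of 0.49 with GC correction (edgeR, adjusted p = 0.00538). Against the 72-hour control the value was -0.33. TCF4 was thus lower under CDK4/6i in both lines and at both times, past the test in 3 of those 4 comparisons.

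E proteins act as dimers and are held back by ID proteins, and 6 such partner genes were read. TCF12, the E protein HEB, fell with TCF4 in CHL1 by 0.64 ± 0.15 and 0.87 ± 0.15 at 72 hours and 6 days of CDK4/6i, and in A375 at 6 days by 1.15 ± 0.20 (largest adjusted p 0.0337, edgeR), the last -0.69 with GC correction. ID2 rose by 1.16 ± 0.18 in CHL1 at 6 days and by 1.97 ± 0.38 in A375 at 72 hours. In A375 at 72 hours ID3 rose by 1.498 ± 0.396 and ID1 by 1.01 ± 0.30 as well. In A375 at 6 days ID4 fell by 2.95 ± 0.58 (edgeR, adjusted p = 0.00109), or -2.49 with GC correction. ID4 rose in CHL1 by 1.37 ± 0.19 at 6 days and by 1.85 ± 0.20 under PRMT5i, while ID1 and ID3 fell under PRMT5i by 1.72 ± 0.26 and 1.61 ± 0.30; all 3 PRMT5i changes passed with GC correction, at 1.22, -0.77 and -0.77.

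Other lists place these genes beside the programmes they are read with. Of 30 other invasive-state genes, TGFBI, a matrix protein induced by TGF-beta, rose under CDK4/6i in CHL1 by 1.33 ± 0.17 and 1.06 ± 0.16 and in A375 by 1.94 ± 0.21 and 1.68 ± 0.20, and under PRMT5i in A375 by 0.87 ± 0.20, while under PRMT5i in CHL1 it fell by 1.07 ± 0.17. With GC correction TGFBI still passed in both groups that GC content set apart, at 1.35 in A375 after 6 days and -0.72 in CHL1 under PRMT5i. The integrin gene ITGA3 rose in CHL1 under CDK4/6i by 1.69 ± 0.24 and 2.41 ± 0.24. Under PRMT5i it fell, by 1.42 ± 0.29 in CHL1 without GC correction and by 0.75 ± 0.19 in A375. EGFR, which with AXL marks the undifferentiated state, fell in A375 at 72 hours of CDK4/6i by 0.70 ± 0.19, and FN1, fibronectin, rose by 1.51 ± 0.21. Of the list, under CDK4/6i 2 rose and 0 fell in CHL1 at 72 hours, where 4.98% of all genes passed, and 3 and 4 at 6 days (16.6%). In A375 3 rose and 1 fell at 72 hours (13.3% of all genes passed), and 5 and 5 at 6 days (43.1%). With GC correction the 6-day counts in A375 were 6 and 5 of the 28 that could be corrected. Under PRMT5i in A375 2 rose and 1 fell, where 2.61% of all genes passed. Under PRMT5i in CHL1 2 rose and 9 fell, where 26.4% and 27.6% of all genes did, and with GC correction 2 rose and 6 fell of the 24 that could be corrected.

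Of 24 genes of the differentiated state, 20 had a row. Under CDK4/6i 1 rose and 1 fell in CHL1 at each time, where 4.98% and 16.6% of all genes passed. In A375 3 rose and 1 fell at 72 hours (13.3% of all genes passed), and 4 rose and 5 fell at 6 days (43.1%). With GC correction the 6-day counts in A375 were 3 and 4 of the 14 that could be corrected. TYRP1, a pigment enzyme, rose in CHL1 by 1.91 ± 0.35 and 1.59 ± 0.36, and GPNMB, a melanosome glycoprotein, rose in A375 by 1.66 ± 0.20 and 1.60 ± 0.20. The genes that fell were DCT in CHL1 at 72 hours (-1.196 ± 0.211), PAX3, a neural crest factor, in CHL1 at 6 days and in A375 at 72 hours (-0.56 ± 0.16 and -0.76 ± 0.18), and 5 in A375 at 6 days that included the transporter SLC24A5 (-2.52 ± 0.38, or -1.45 with GC correction). MITF itself did not pass in CHL1 or in A375 at 72 hours under CDK4/6i, and fell by 1.05 ± 0.19 in A375 at 6 days (edgeR, adjusted p = 0.000499), or by 0.64 with GC correction. GPNMB there was 1.70 with GC correction. Under PRMT5i in CHL1 8 of the 20 rose and 1 fell, where 26.4% and 27.6% of all genes did, and with GC correction 7 rose and 1 fell of the 12 that could be corrected. MITF was among the 8 that rose without correction, at 0.95 ± 0.16, or 0.30 with GC correction, where it no longer passed (edgeR, adjusted p = 0.0988).

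The 2 drugs were also set directly against each other at 72 hours. In CHL1, 5 of 9 genes differed, against 57.8% of all genes (28.4% higher, 29.4% lower). ZEB1, ZEB2 and TCF4 were higher under PRMT5i by 1.36 ± 0.29, 0.84 ± 0.16 and 1.11 ± 0.17, and JUN and PDGFRB were lower, by log2 differences of -2.21 ± 0.40 and -1.68 ± 0.29. With GC correction 3 of the 7 corrected genes passed, where 51.4% of the genes tested did. These were JUN, PDGFRB and AXL, the last higher under PRMT5i by 0.39, and ZEB1, ZEB2 and TCF4 did not, at 0.37, -0.11 and 0.09. In A375, 0 of 9 passed in edgeR against 5.45% of all genes, with 2 at an unadjusted p below 0.05 and 1 called by DESeq2, which called 9.61% of the genes it tested. That gene was AXL, higher under PRMT5i by 0.63 ± 0.19 (edgeR, adjusted p = 0.0623).

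Time was compared in both lines. CHL1 libraries of 6 days against 72 hours of CDK4/6i gave 0 of 9 in edgeR against 0.0145% of all genes, with 2 at an unadjusted p below 0.05 (NGFR and WNT5A) and 0 called by DESeq2. In A375 the controls of 6 days and 72 hours differed in 8 of 9 genes, against 47.8% of all genes, 5 of them higher at 6 days (24.0% of all genes) and 3 lower (23.8%). SNAI2, ZEB2, ZEB1, TCF4 and WNT5A were higher at 6 days by 2.16, 1.92, 1.62, 0.90 and 0.59 on the log2 scale, and JUN, PDGFRB and AXL were lower by differences of -1.98, -1.38 and -1.35. With GC correction 6 of these passed, where 43.0% of the genes tested did, and TCF4 at 0.09 and WNT5A at 0.22 did not.

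The response of the lines was compared as CHL1 minus A375. For CDK4/6i at 72 hours 0 of 9 genes differed in edgeR, against 0.642% of all genes, with 3 at an unadjusted p below 0.05 and 0 called by DESeq2. With GC correction 1 was called in that comparison. At 6 days WNT5A alone passed, 1 of 9 against 21.9% of all genes, and higher in CHL1 as 12.4% were. Its fitted difference depends on the count added to a control of 0 reads. The 6-day controls were unlike: CHL1 was set against its 72-hour control and A375 against its 6-day control, a group set apart by GC content. With GC correction 3 of the genes passed, so the count of 1 depends on the setting, and AXL and TCF4 turned sign. The share of all genes that passed in that corrected fit is not given here. For PRMT5i 4 of 9 differed, against 40.9% of all genes (18.8% higher, 22.1% lower). The CHL1 response was higher by 1.51 ± 0.39 for ZEB1 and 0.79 ± 0.28 for TCF4, and lower for JUN and PDGFRB, with differences of -2.06 ± 0.63 and -1.22 ± 0.39 (edgeR, adjusted p = 0.00494, 0.0304, 0.0140 and 0.0168). With GC correction, where 29.3% of the genes tested passed, none of these 4 did, at 0.54, -0.20, -1.21 and -0.29 for ZEB1, TCF4, JUN and PDGFRB. Without CHL1 PRMT5i replicate 1 the calls for JUN (-1.45) and PDGFRB (-0.76) ended, and that for JUN also ended without A375 control replicate 1 (-1.86) or A375 PRMT5i replicate 2 (-1.87). The TCF4 call ended without CHL1 control replicate 1, CHL1 PRMT5i replicate 2 or any of the 4 A375 libraries (0.64 to 0.84), and the ZEB1 call held in all 8 such fits.

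Genes with the most similar pattern over the 9 groups were looked up after subtracting each line's mean from log2(CPM + 1). AXL was most like PGF, a placental growth factor gene (Pearson r = 0.990 over 9 group means), ZEB2 most like LEF1, a WNT effector (r = 0.993), JUN most like SCRN1 (r = 0.994), ZEB1 most like DNAJC1 (r = 0.995) and SNAI2 most like ZNF470 (r = 0.981). TCF4 was most like CTD-2591A6.2 (r = 0.986), PDGFRB most like HEATR6 (r = 0.987) and NGFR most like ERLIN2 (r = 0.978). The 9 means share libraries, depth and the base composition of the 2 groups set apart above, and the values are a description.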

How the data were processed

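RNA-seq was made from 18 libraries of the melanoma lines CHL1 and A375. The authors deposited a table of raw read counts per gene, which per the labels and methods was made with HISAT2 2.0.4 and HTSeq (0.11.2 in the processing notes) on GRCh37. Strandedness is not given in the sources used here, so reads of a gene and its antisense partner cannot be told apart. Library totals ran from 16213475 to 37424081 counts.

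The members and gene lists were chosen with earlier results of these data known. Counts were tested with edgeR 4.0.16 (R 4.3.3), by the quasi-likelihood test with TMM scaling, in 1 fit a line (all 18 libraries for comparisons of lines), and p-values were adjusted by Benjamini-Hochberg over all 20705 genes at 0.05. CPM values used TMM over the 18 libraries. Members were all named. Of each companion list, up to 3 genes with the largest change past the test and a line mean of at least 1 CPM were named in each of the 6 treatment comparisons. A group with 3 reads or fewer in every library was taken as at the floor. GC content came from the longest GENCODE 44 transcript, and the GC correction was a loess offset of span 0.4. The main fits held no pairing of libraries. Pairing by replicate number entered only as a block in an alternative fit (correlations in A375 at 72 hours 0.22, 0.48 and 0.25 of deviations from group means). Alternatives were median-of-ratios scaling, DESeq2 1.42.0, dropping genes of low count, the block, other controls, fits of the compared groups alone and leaving out each library. The scripts were tested on simulated counts. Some genes that this rule names are not reported here.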

Additional observations from a re-analysis of the deposited data

Results flagged for a closer look

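Of the differences between the lines in response to a drug, 5 passed the test of the difference itself over all 18 libraries (edgeR). WNT5A differed after 6 days of CDK4/6i, with a fitted CHL1 minus A375 difference of 6.58 on the log2 scale that depends on the count added to 0 reads in the CHL1 control. Under PRMT5i, the difference was 1.51 for ZEB1, -2.06 for JUN, 0.79 for TCF4 and -1.22 for PDGFRB. With GC correction the values were 0.54 for ZEB1, -1.21 for JUN, -0.20 for TCF4 and -0.29 for PDGFRB, and none of these 4 passed.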

How the results depend on the processing

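The main fits were unpaired. Same-numbered A375 libraries at 72 hours had the positive correlations given under processing, and the block changed no member count there. In CHL1 the correlations of same-numbered libraries ran from -0.34 to 0.44, the highest between the control and CDK4/6i at 72 hours. Whether the CHL1 libraries were paired is not settled by this check. No block was fitted to comparisons with the A375 libraries of 6 days, whose replicate numbers are in accession order only. With 2 libraries a group, a single library decides many calls, and counts of a few reads limit NGFR and WNT5A in CHL1 and SNAI2 in A375. Of the 9 members, 7 were tested in the CHL1 fits over genes with a GC value, GC-corrected or not, and in those with a filter of 1 CPM, since NGFR and WNT5A were below 1 CPM there. With that filter, and over genes with a GC value, JUN alone of those 7 lost its call after 6 days of CDK4/6i. The causes of the changes listed here were not tested. The fits over genes with a GC value and with the block and GC correction together were added after the data were seen. The member counts that follow show only how calls moved with the setting. The share of all genes that passed in the same fit is given only where stated above. The counts are therefore not read as a result about the set. With the replicate number as a block, the members called were 1 for CHL1 CDK4/6i at 72 hours. In fits of the 2 compared groups alone, the members called were 4 for CHL1 CDK4/6i at 72 hours, 5 for A375 CDK4/6i at 72 hours, 3 for A375 PRMT5i, 3 for A375 PRMT5i against CDK4/6i. With a filter of 1 CPM in 2 libraries, the members called were 3 for CHL1 CDK4/6i at 6 days. Over genes with a GC value but without correction, the members called were 3 for CHL1 CDK4/6i at 6 days, 1 for A375 PRMT5i against CDK4/6i, 2 for the 6-day CDK4/6i response between lines. With GC correction, the members called were 3 for CHL1 PRMT5i, 4 for A375 CDK4/6i at 72 hours, 2 for A375 PRMT5i, 3 for CHL1 PRMT5i against CDK4/6i, 2 for A375 PRMT5i against CDK4/6i, 1 for the 72-hour CDK4/6i response between lines, 3 for the 6-day CDK4/6i response between lines, 0 for the PRMT5i response between lines. With GC correction and the replicate block, the members called were 3 for CHL1 PRMT5i, 4 for A375 CDK4/6i at 72 hours, 2 for A375 PRMT5i, 3 for CHL1 PRMT5i against CDK4/6i, 2 for A375 PRMT5i against CDK4/6i, 1 for the 72-hour CDK4/6i response between lines, 0 for the PRMT5i response between lines. With DESeq2, the members called were 1 for A375 PRMT5i against CDK4/6i. With GC correction, the log2 fold change turned sign for AXL in CHL1 PRMT5i (0.090), ZEB2 in CHL1 PRMT5i (-0.46), TCF4 in CHL1 PRMT5i (-0.63), JUN in A375 CDK4/6i at 72 hours (-0.00022), NGFR in A375 CDK4/6i at 6 days (-0.26), WNT5A in A375 CDK4/6i at 6 days (0.083), ZEB2 in A375 PRMT5i (0.019), AXL in CHL1 PRMT5i against CDK4/6i (0.39), ZEB2 in CHL1 PRMT5i against CDK4/6i (-0.11), SNAI2 in CHL1 PRMT5i against CDK4/6i (-0.25), TCF4 in A375 PRMT5i against CDK4/6i (-0.061), TCF4 in CHL1 the longer against the shorter CDK4/6i (-0.019), ZEB1 in the 72-hour CDK4/6i response between lines (-0.042), AXL in the 6-day CDK4/6i response between lines (0.34), TCF4 in the 6-day CDK4/6i response between lines (-0.23), AXL in the PRMT5i response between lines (0.21), ZEB2 in the PRMT5i response between lines (-0.45), TCF4 in the PRMT5i response between lines (-0.20). With GC correction and the replicate block, the log2 fold change turned sign for AXL in CHL1 PRMT5i (0.090), ZEB2 in CHL1 PRMT5i (-0.46), TCF4 in CHL1 PRMT5i (-0.63), ZEB2 in A375 PRMT5i (0.020), AXL in CHL1 PRMT5i against CDK4/6i (0.39), ZEB2 in CHL1 PRMT5i against CDK4/6i (-0.11), SNAI2 in CHL1 PRMT5i against CDK4/6i (-0.26), TCF4 in A375 PRMT5i against CDK4/6i (-0.065), TCF4 in CHL1 the longer against the shorter CDK4/6i (-0.030), ZEB1 in the 72-hour CDK4/6i response between lines (-0.035), AXL in the PRMT5i response between lines (0.21), ZEB2 in the PRMT5i response between lines (-0.45), TCF4 in the PRMT5i response between lines (-0.20). Against the A375 control of 72 hours, the log2 fold change turned sign for NGFR in A375 CDK4/6i at 6 days (-1.09), WNT5A in A375 CDK4/6i at 6 days (0.35), ZEB1 in A375 CDK4/6i at 6 days (0.27), ZEB2 in A375 CDK4/6i at 6 days (1.03). Against the A375 control of 6 days, without GC correction, the log2 fold change turned sign for TCF4 in the line comparison (-0.94). With median-of-ratios scaling, the log2 fold change turned sign for TCF4 in the line comparison (-0.023). Over genes with a GC value but without correction, the log2 fold change turned sign for TCF4 in the line comparison (-0.031). With DESeq2, the log2 fold change turned sign for TCF4 in the line comparison (-0.023). Without 1 library at a time, the members called ranged from 0 to 2 for CHL1 CDK4/6i at 72 hours, 1 to 6 for CHL1 CDK4/6i at 6 days, 4 to 6 for CHL1 PRMT5i, 0 to 5 for A375 CDK4/6i at 72 hours, 3 to 6 for A375 CDK4/6i at 6 days, 0 to 2 for A375 PRMT5i, 5 to 6 for CHL1 PRMT5i against CDK4/6i, 0 to 2 for A375 PRMT5i against CDK4/6i, 0 to 0 for CHL1 the longer against the shorter CDK4/6i, 7 to 9 for A375 controls, 8 to 8 for the line comparison, 0 to 0 for the 72-hour CDK4/6i response between lines, 1 to 4 for the 6-day CDK4/6i response between lines, 2 to 5 for the PRMT5i response between lines. The sign also turned without some libraries, with ranges of -0.017 to 0.23 for WNT5A in A375 CDK4/6i at 72 hours, -0.058 to 0.28 for JUN in A375 CDK4/6i at 72 hours, -1.10 to 2.27 for NGFR in A375 CDK4/6i at 6 days, -0.71 to 0.90 for JUN in A375 CDK4/6i at 6 days, -0.015 to 0.16 for WNT5A in A375 PRMT5i, -0.15 to 0.0081 for ZEB2 in A375 PRMT5i, -0.18 to 0.43 for NGFR in A375 PRMT5i against CDK4/6i, -0.16 to 0.093 for WNT5A in A375 PRMT5i against CDK4/6i, -0.17 to 0.015 for ZEB1 in A375 PRMT5i against CDK4/6i, -0.065 to 0.15 for TCF4 in A375 PRMT5i against CDK4/6i, -0.52 to 0.21 for ZEB1 in CHL1 the longer against the shorter CDK4/6i, -0.010 to 0.12 for TCF4 in CHL1 the longer against the shorter CDK4/6i, -0.083 to 0.14 for TCF4 in the line comparison, -0.47 to 1.19 for NGFR in the 72-hour CDK4/6i response between lines, -0.32 to 0.33 for ZEB1 in the 72-hour CDK4/6i response between lines, -0.29 to 0.020 for AXL in the 6-day CDK4/6i response between lines, -0.21 to 0.75 for SNAI2 in the 6-day CDK4/6i response between lines, -0.097 to 2.96 for WNT5A in the PRMT5i response between lines, -0.98 to 0.43 for SNAI2 in the PRMT5i response between lines.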
